A study of Mus musculus with 25 samples.

Results

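Deletion of Stat3 in the hepatocytes of DDC-fed mice was followed across all genes in 5 RNA-seq libraries, 3 labelled DDC STAT3KO and 2 labelled DDC, taken by their column names from the 13 hepatocyte libraries of a series of 25. Hepatocytes are the main epithelial cells of the liver, and the series addresses IL-6 and STAT3 signalling in them. Both groups were Stat3-floxed mice of the strain C57BL/6J 129SV that ate a diet with DDC, a compound that blocks haem synthesis and injures liver cells and bile ducts, for 1 week. The deleted mice had received an adeno-associated virus carrying Cre recombinase 2 weeks before (AAV-TBG-Cre), and the controls the same kind of virus carrying GFP (AAV-TBG-GFP). TBG is a promoter used to restrict expression to hepatocytes, so other liver cells were not meant to lose Stat3. For comparison, the IL-6 STAT3KO group (n = 3) was floxed and given AAV-TBG-Cre with an IL-6 plasmid by hydrodynamic tail vein injection, but its controls, the IL-6 group (n = 3), were wild type and had no virus. Wild-type mice given a GFP plasmid (n = 2) served as the reference without DDC or IL-6, and plasmids had been given 1 week before. The labels do not say that replicates came from separate animals, so p-values measure only the spread between libraries, which may be technical.

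STAT3 is the transcription factor through which cytokines of the IL-6 family act on hepatocytes. These cytokines bind receptors that share the subunit gp130, Janus kinases then phosphorylate STAT3, and STAT3 raises acute phase genes, whose products are secreted into plasma, together with Socs3, which shuts the receptor off. STAT3 binds DNA at short palindromes that hold TTC and GAA on either side of a spacer.

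Total counts were 17078512 and 18428988 in the DDC libraries and 18233345, 17974771 and 13625040 in DDC STAT3KO replicates 1, 2 and 3. Levels are CPM, counts per 1000000 on TMM-scaled library sizes. The vectors matched their labels: an EGFP sequence held 22357 and 27571 counts in the DDC libraries and 1, 0 and 0 counts in the DDC STAT3KO libraries. All libraries carried the hepatocyte markers, whose 15 members together made up 87120 to 128100 CPM. Mitochondrial genes took 2.03% of the counts in DDC STAT3KO replicate 1 and 5.21% to 5.48% in the other 4 libraries.

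Replicate 3 of the deleted group stood apart from the other 4 libraries. Its log2 levels correlated across genes at r = 0.937 to 0.944 with theirs, against 0.962 to 0.978 among those 4, and at a mean of 0.935 with the GFP plasmid libraries, against 0.887 to 0.901 for the others. DDC against the GFP plasmid gave 10.4% of genes called higher and 8.29% lower by edgeR. These groups also differed in genotype, virus and plasmid, which cannot be told apart from the diet here. Of those called higher, 1281 exceeded a log2 fold change of 1. They were chosen on the DDC and GFP plasmid libraries, so the DDC medians over the GFP plasmid mean are high by that choice. The deleted libraries took no part in it. These medians were 1.51 and 1.65 in the DDC libraries and 1.32 and 1.47 in deleted replicates 1 and 2, but 0.69 in replicate 3. Counts that moved by over 1.5 times without this library are therefore given both ways.

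Stat3 itself (ENSMUSG00000004040, GRCm38 chromosome 11, 100885098 to 100939540, reverse strand) stood at 150.1 and 112.0 CPM in the DDC libraries and at 62.1, 56.3 and 87.3 CPM in deleted replicates 1, 2 and 3. The groups did not overlap, and the means were 131.0 ± 26.9 (SD, n = 2) and 68.5 ± 16.5 CPM (n = 3). Reads were counted over all of Stat3, and which exons Cre removes is not stated, so what remains need not be intact transcript. Across all 14339 genes tested, edgeR's quasi-likelihood test called 0 higher and 0 lower at an adjusted p under 0.05 (0.0% each), and limma-voom also called 0 (545 genes at an unadjusted p under 0.05). At an unadjusted p under 0.05 edgeR found 474 higher and 329 lower, 5.6% of all genes. The smallest adjusted p, 0.112, belonged to Saa1 and to Cux2, a homeobox gene at low levels of 2.92 and 1.87 CPM in the controls and 0.0968, 0.273 and 0.299 CPM in the deleted libraries.

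DESeq2, an alternative tool that left all but 3455 genes without an adjusted p, called 7 genes lower (0.203%) and 2 higher (0.0579%). The lower ones were the serum amyloid genes Saa1 and Saa2, the complement component C4b, the complement inhibitor Serping1, the metalloreductase Steap4, Socs3 and Stat3, and the higher ones were the glycolytic enzyme gene Pklr and Pdhb of the pyruvate dehydrogenase complex. Without one library at a time, DESeq2 called 16, 266 and 17 genes when deleted replicate 1, 2 or 3 was left out, and 17 and 11 when DDC replicate 1 or 2 was left out. Of the 9 genes, 7, 9, 5, 1 and 4 were among those. Saa1 was the one that remained without DDC replicate 1, and without deleted replicate 3 Pklr, Saa2, Socs3 and Steap4 were lost. In edgeR and limma fits the adjusted p of Saa1 ranged from 0.0463 to 0.999 and that of the other 8 genes from 0.134 to 1.0. With 3 libraries against 2, a two-sided exact permutation test on ranks cannot reach a p below 0.2.

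A second, simpler measure is used for the gene groups below: whether all 3 deleted libraries lay below, or above, both DDC libraries. This held for 1291 genes below (9.0%) and 1341 above (9.35%), and without replicate 3 for 2384 (16.6%) and 2232 (15.6%). Each list count below is to be read against these shares. The median log2 fold change of all genes was 0.008, and -0.006 without replicate 3.

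The promoters of the genes called by DESeq2 were searched for the STAT palindrome TTCNNNGAA (N is any base), which reads the same on both strands, in RefSeq windows on GRCm38.p6 from 250 bases before to 50 after each gene's start. Windows were found for 10630 of the 14339 genes by symbol, and 8.47% of those held the motif. Of the 7 genes called lower, 5 had a window, and it held the motif for Socs3 and Steap4 but not for Saa1, Saa2 or Stat3; neither Pdhb nor Pklr held it. Among acute phase genes it was found in 8 of 27 windows (29.6%), including the fibrinogen chains Fga and Fgb. Of the acute phase genes below both controls, 3 of 13 windows held it (23.1%), and Hamp, which lay above both, held it too. Among genes whose groups did not overlap, 8.61% of windows held it on the lower and 8.34% on the higher side. The 250 bases before the start are shown for Socs3, Steap4, Fga and Fgb, 5′ to 3′ on the gene's strand, with the match in capitals. These genes were picked because their deleted libraries lay below both controls and their windows held the motif. They therefore say nothing on a link between motif and fall. A match is a description of these letters and not a binding site.
Socs3, chr11:117969367-117969616, reverse strand: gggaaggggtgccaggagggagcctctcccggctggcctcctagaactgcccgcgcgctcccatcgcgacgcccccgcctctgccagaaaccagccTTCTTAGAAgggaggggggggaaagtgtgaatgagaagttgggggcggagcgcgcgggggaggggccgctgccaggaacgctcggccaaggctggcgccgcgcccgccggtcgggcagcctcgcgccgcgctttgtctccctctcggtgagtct
Steap4, chr5:7960222-7960471, forward strand: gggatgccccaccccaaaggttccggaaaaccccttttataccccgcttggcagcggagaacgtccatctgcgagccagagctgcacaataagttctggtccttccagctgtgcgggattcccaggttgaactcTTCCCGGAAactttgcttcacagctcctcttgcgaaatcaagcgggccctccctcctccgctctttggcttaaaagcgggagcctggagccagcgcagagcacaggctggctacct
Fga, chr3:83025903-83026152, forward strand: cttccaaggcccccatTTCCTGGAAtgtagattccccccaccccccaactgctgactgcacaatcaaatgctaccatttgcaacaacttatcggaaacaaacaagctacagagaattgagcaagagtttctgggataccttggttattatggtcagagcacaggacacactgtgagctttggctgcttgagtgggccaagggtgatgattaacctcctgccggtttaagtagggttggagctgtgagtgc
Fgb, chr3:83049864-83050113, reverse strand: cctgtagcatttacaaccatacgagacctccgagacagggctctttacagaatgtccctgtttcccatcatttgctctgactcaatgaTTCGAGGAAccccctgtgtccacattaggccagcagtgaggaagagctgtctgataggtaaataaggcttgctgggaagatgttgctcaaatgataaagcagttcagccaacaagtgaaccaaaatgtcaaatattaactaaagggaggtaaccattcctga
The matches begin 154 bases before the start in Socs3, 116 in Steap4, 234 in Fga and 162 in Fgb.

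Within the IL-6 family pathway, the deleted libraries were low in Stat3, in its feedback inhibitor Socs3 and in the receptor Osmr. Socs3 held 32.6 and 15.1 CPM in the DDC libraries and 9.54, 11.0 and 6.14 CPM in the deleted ones. Its highest deleted library lay below the lower control, and DESeq2 gave a log2 fold change of -1.43 ± 0.36 (SE, the form used from here on, adjusted p = 0.0324). Osmr, the oncostatin M receptor that pairs with gp130, held 12.6 and 9.71 CPM against 1.55, 5.45 and 2.62 CPM. The groups did not overlap, with an edgeR log2 fold change of -1.79 ± 0.43 that did not pass (unadjusted p = 0.00137, adjusted p = 0.853). The ligand gene Il6 had 1 count in DDC replicate 2 and 0 in the other 4 libraries. Its receptor gene Il6ra ranged from 34.4 to 84.7 CPM in the controls and from 46.6 to 128.5 CPM in the deleted libraries, which overlap. The same was true of Il6st, which encodes gp130, at 256.5 and 188.4 CPM against 140.6, 214.4 and 171.3 CPM. The kinase gene Jak1 stood at 179.2 and 191.0 CPM against 152.5, 174.6 and 184.7 CPM. Of 27 tested members of the IL-6 family list, 4 lay below both controls (14.8%, against 9.0% of all genes) and 0 above. Without replicate 3 it was 9 and 2, against 16.6% and 15.6% of all genes.

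With all 3 deleted libraries, genes listed as STAT3 growth and survival targets had a share below both controls like that of the IL-6 family list. Of 19 tested, 3 (15.8%, against 9.0% of all genes) lay below and 0 above, with a median log2 fold change of -0.03. Without replicate 3 it was 3 and 3, against 16.6% and 15.6% of all genes. The IL-6 family list then had 9 of 27 below, so the likeness did not hold. The growth and survival targets below were Fos and Junb, which are AP-1 subunits, and Timp1, an inhibitor of matrix proteases. Fos held 167.5 and 156.4 CPM against 67.1, 108.7 and 79.9 CPM. Myc ranged from 11.4 to 30.7 CPM in the controls and from 13.3 to 27.1 CPM in the deleted libraries, and Mcl1, an inhibitor of cell death, from 127.3 to 147.9 and from 137.2 to 204.1 CPM. Reg3b and Reg3g had no count in any of the 5 libraries.

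**Figure D1:**
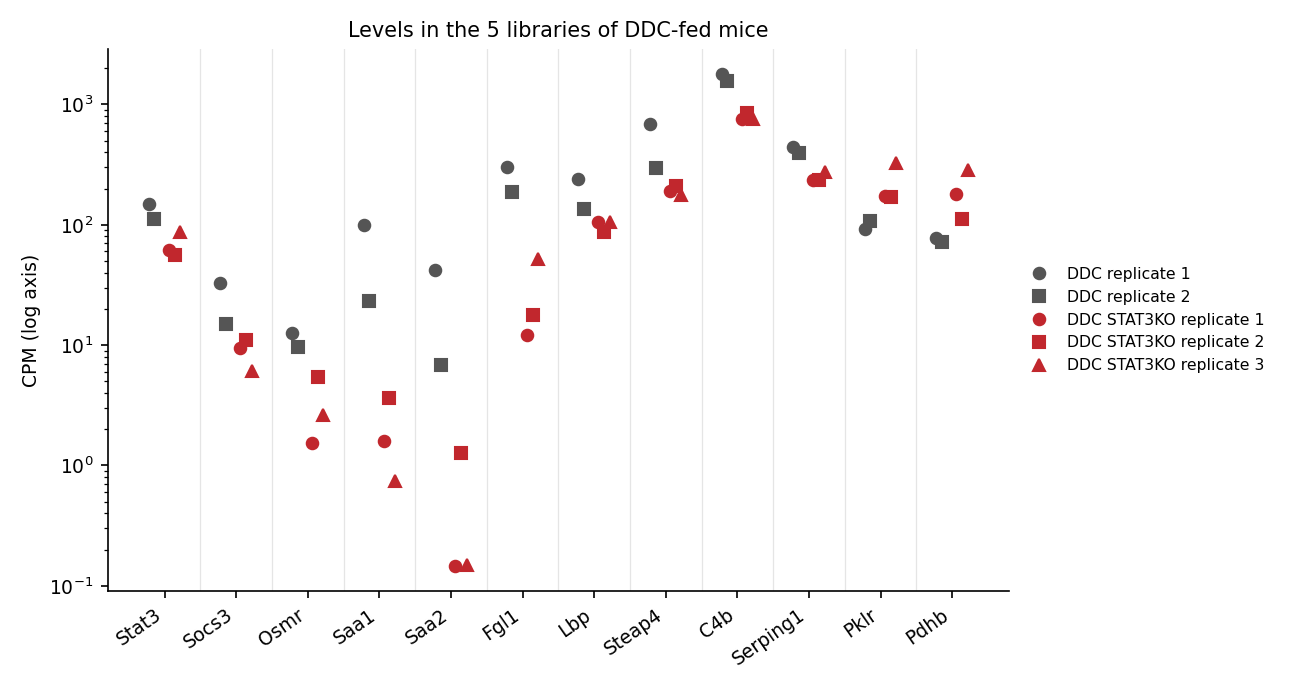
Level of 12 genes in CPM (log axis) in each of the 5 libraries of DDC-fed mice, with controls in grey and Stat3-deleted libraries in red and replicate 3 as a triangle. In all 12 genes the red points lie wholly below the grey ones or, for Pklr and Pdhb, wholly above them; Saa1 reaches from 99.2 down to 0.748 CPM.

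Acute phase genes, which the liver secretes in inflammation, were often low after deletion. Of 37 tested members, 16 (43.2%, against 9.0% of all genes) lay below both controls and 5 (13.5%, against 9.35%) above. Without replicate 3 it was 22 and 5, against 16.6% and 15.6% of all genes. The list's median log2 fold change was -0.70, and -0.76 without replicate 3. EdgeR called none of the 37, while 15 were lower and 2 higher at an unadjusted p under 0.05, and DESeq2 called 4 lower.

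Serum amyloid A genes, which encode small lipid-carrying proteins of the acute response, showed wide gaps. Saa1 held 99.2 and 23.04 CPM in the DDC libraries and 1.60, 3.63 and 0.748 CPM in the deleted ones. Saa2 held 41.8 and 6.86 CPM against 0.145, 1.27 and 0.150 CPM, which are 788 and 154 counts against 3, 28 and 2. The controls themselves differed widely, yet neither gene's groups overlapped. DESeq2 gave -4.93 ± 0.62 for Saa1 (adjusted p = 7.09e-12) and -5.53 ± 1.39 for Saa2 (adjusted p = 0.0324). The 2 genes are near copies whose reads counting may split, so single values are uncertain. Saa3 overlapped between groups, at 12.8 and 0.980 CPM against 1.21, 2.59 and 2.84 CPM, as did Saa4.

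The liver-secreted fibrinogen-like protein gene Fgl1 held 301.1 and 186.6 CPM against 12.1, 17.6 and 51.6 CPM, without overlap, but its edgeR log2 fold change of -3.17 ± 0.79 did not pass (adjusted p = 0.853). DESeq2 gave Fgl1 an adjusted p of 0.0739, and 0.00323 without replicate 3. Steap4 held 689.8 and 294.3 CPM against 192.5, 210.6 and 177.9 CPM (DESeq2 log2 fold change -1.35 ± 0.31, adjusted p = 0.0117). Here the deleted libraries lay close together and the 2 controls differed. Lbp, which binds bacterial lipopolysaccharide, held 238.0 and 134.9 CPM against 106.0, 86.8 and 105.9 CPM. Lrg1, a secreted leucine-rich glycoprotein, held 946.5 and 793.2 CPM against 624.9, 402.1 and 229.8 CPM, and Lcn2, which binds bacterial siderophores, 253.3 and 267.8 against 130.2, 100.7 and 72.2 CPM. All deleted libraries lay below both controls for Lbp, Lrg1 and Lcn2, and none of the 3 passed edgeR or DESeq2 with all libraries.

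The fibrinogen chains differed less, and in 2 of 3 the gap was narrow. Fga held 4855 and 2352 CPM against 1359, 1729 and 2123 CPM, and Fgb 4449 and 2613 against 2109, 2056 and 2300 CPM. Fgg overlapped, at 2522 and 1107 CPM against 1024, 847 and 1111 CPM. In all 3 chains DDC replicate 1 lay far above replicate 2, which was near the deleted libraries. Haptoglobin (Hp) ranged from 5648 to 6617 CPM in the controls and from 3843 to 8125 CPM after deletion, with overlap. The members above both controls were the hepcidin gene Hamp and 4 protease inhibitor genes of the Serpina1 and Serpina3 clusters. Serpina1a held 294.7 and 230.6 CPM against 760.7, 695.0 and 550.9 CPM (edgeR log2 fold change 1.35 ± 0.40, adjusted p = 0.853). These clusters hold near-identical copies, so values of single members are uncertain.

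Within complement and coagulation, the low genes were few and came mostly from complement. Of 38 tested, 7 (18.4%, against 9.0% of all genes) lay below both controls and 0 above. Without replicate 3 it was 11 and 1, against 16.6% and 15.6% of all genes. The list's median log2 fold change was -0.05. C4b, of the classical pathway, held 1794 and 1571 CPM against 760.6, 843.0 and 754.4 CPM, with -1.10 ± 0.19 in DESeq2 (adjusted p = 1.36e-05). Serping1, which inhibits the proteases that start that pathway, held 442.1 and 396.0 CPM against 236.4, 233.3 and 274.5 CPM (DESeq2 -0.76 ± 0.19, adjusted p = 0.0324). In both genes the libraries of each group lay close together. The central component C3 held 16580 and 13860 CPM against 6629, 9826 and 11560 CPM. The thrombin gene F2 overlapped, at 1633 and 1406 CPM against 1728, 1381 and 1584 CPM, and so did F9, F10, Serpinc1 and Plg.

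**Figure D2:**
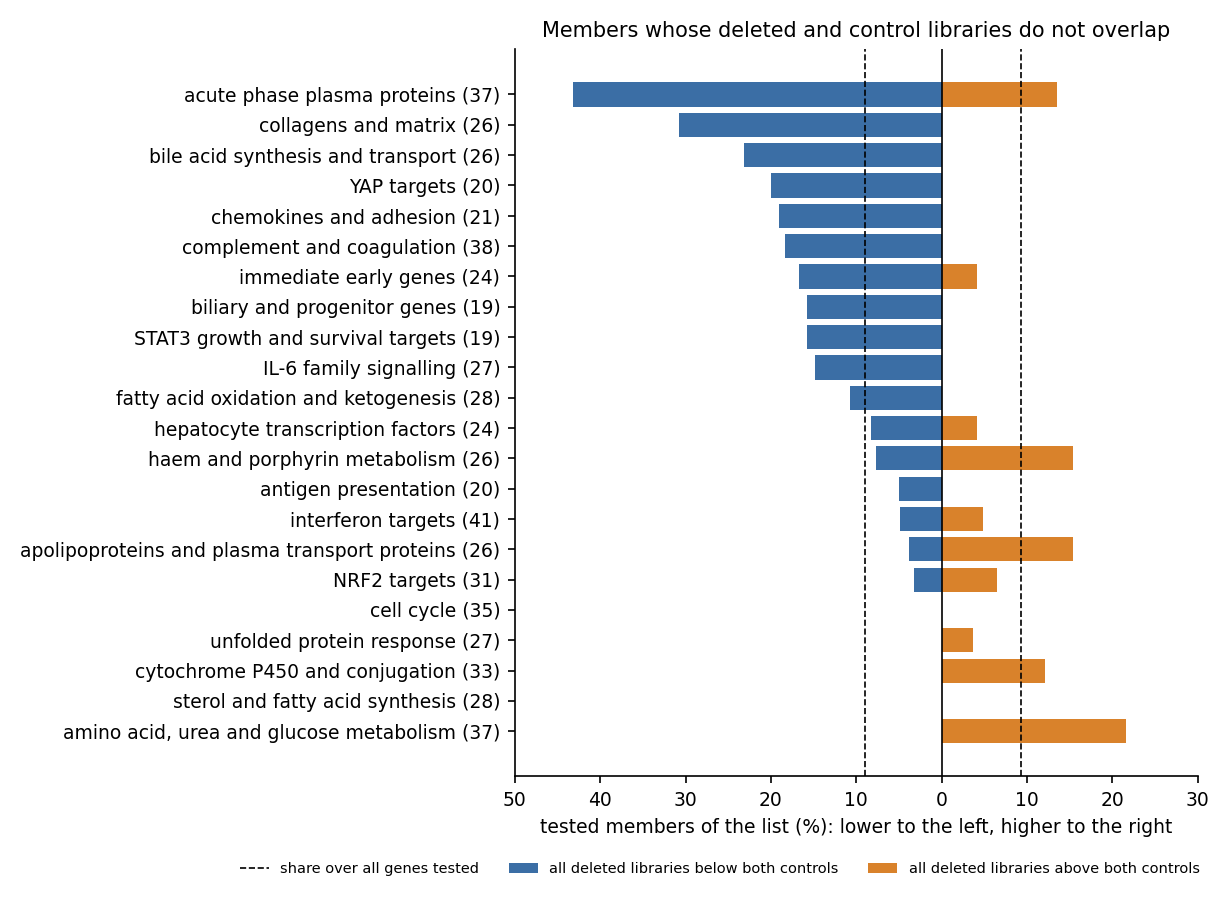
Share of tested members (%, number in brackets) of each gene list for which all 3 deleted libraries lay below both controls (blue, to the left) or above both (orange, to the right), with dashed lines at the shares over all genes, 9.0% and 9.35%. Acute phase plasma proteins reach 43.2% on the lower side, and amino acid, urea and glucose metabolism 21.6% on the higher side.

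Members of the amino acid, urea and glucose list that stood apart with all 3 deleted libraries lay on the higher side. Of 37 amino acid, urea and glucose genes, 8 (21.6%, against 9.35% of all genes) lay above both controls and 0 below. Without replicate 3 it was 8 and 2, while the share of all genes above rose to 15.6%. The list's median log2 fold change was 0.50, and 0.19 without replicate 3. Pklr held 92.3 and 107.0 CPM against 173.6, 171.7 and 323.9 CPM (DESeq2 log2 fold change 1.16 ± 0.29, adjusted p = 0.0324). Pdhb, outside the lists, held 77.4 and 72.0 CPM against 181.5, 111.7 and 282.5 CPM (DESeq2 1.35 ± 0.31, adjusted p = 0.0117). Khk, which phosphorylates fructose, had the same order and held 191.0 and 125.7 CPM against 324.3, 211.2 and 563.5 CPM. Replicate 3 was the highest library for Pklr, Pdhb and Khk.

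The direction of the drug-metabolising genes depended on replicate 3. Of 33 cytochrome P450 and conjugation genes, 4 (12.1%, near the 9.35% of all genes) lay above both controls and 0 below. The median was 0.39, but without replicate 3 it was -0.14, with 4 above and 5 below. Cyp1a1, an enzyme induced by aromatic ligands, held 1.49 and 1.69 CPM in the controls and 1.69, 2.00 and 57.8 CPM in the deleted libraries. Cyp2b10, induced by phenobarbital-like compounds, held 130.4 and 46.4 CPM against 103.6, 91.9 and 1368 CPM. Alas1, the first enzyme of haem synthesis, held 528.6 and 384.9 CPM against 553.9, 1129 and 2906 CPM. For Cyp1a1 and Cyp2b10 the high value was that of replicate 3 alone. Of 26 haem genes, 4 lay above (15.4%, against 9.35% of all genes) and 2 below (7.69%, against 9.0%), and 4 and 3 without replicate 3. Of 26 bile acid genes, 6 (23.1%, against 9.0% of all genes) lay below and 0 above, and 13 and 0 without replicate 3 (against 16.6% and 15.6%). Margins were small: Abcb4, the canalicular phospholipid transporter, held 799.4 and 905.8 CPM against 764.3, 596.3 and 565.7 CPM. Fatty acid oxidation had 3 of 28 below (10.7%, near the 9.0% of all genes) and 0 above. Without replicate 3 it was 8 and 0, against 16.6% and 15.6% of all genes. Sterol and fatty acid synthesis had 0 of 28 either way, and 4 below without replicate 3, with medians of -0.21 and -0.76. NRF2 targets had 1 of 31 below and 2 above, and 2 and 4 without replicate 3.

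Some genes of bile duct cells and of matrix lay below both controls in the deleted libraries, and none passed edgeR or DESeq2. Sox9, a transcription factor of bile duct cells and of hepatocytes that take on duct features, held 31.7 and 29.4 CPM against 12.8, 14.1 and 4.12 CPM. Its groups did not overlap, with an edgeR log2 fold change of -1.55 ± 0.42 (unadjusted p = 0.00315, adjusted p = 0.853). Spp1, the secreted phosphoprotein osteopontin, held 485.8 and 539.2 CPM against 244.2, 226.0 and 2.32 CPM. Of 19 biliary and progenitor genes, 3 lay below both controls, Sox9 and Spp1 among them (15.8%, against 9.0% of all genes), and 0 above. Without replicate 3 it was 3 and 1, where 16.6% of all genes lay below, so that share was no higher than that of all genes. The list's summed level overlapped, at 6553 and 5655 CPM against 7554, 4739 and 4005 CPM. The list's median was -0.92, and -0.48 without replicate 3. The keratin Krt8 overlapped, at 3543 and 2995 CPM against 4006, 2715 and 2617 CPM. Of 26 collagen and matrix genes, 8 (30.8%) lay below and 0 above, with or without replicate 3. Of all genes, 9.0% lay below with that library and 16.6% without it. The 8 matrix genes include Fn1, the fibronectin gene, which hepatocytes secrete (2476 and 2320 CPM against 740.0, 1613 and 2288 CPM), and Col1a1, a fibroblast collagen (12.7 and 18.8 CPM against 11.8, 10.9 and 0.374 CPM).

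Summed levels of non-hepatocyte markers in the same libraries were as follows. Summed over 7 cholangiocyte markers, of which 6 were tested and which include Sox9 and Spp1, the level was 546.3 and 592.5 CPM in the controls. After deletion it was 266.1, 257.3 and 16.8 CPM. Spp1 alone made up most of this sum in every library but replicate 3, at 485.8 and 539.2 CPM against 244.2, 226.0 and 2.32 CPM. The sum therefore largely repeats that gene. Of the 6 tested markers, 3 lay below both controls, Sox9 and Spp1 among them, and 0 above. The stellate and fibroblast markers summed to 383.6 and 567.3 CPM against 324.1, 488.4 and 161.1 CPM. Of 13 tested, 4 lay below (30.8%, against 9.0% of all genes). The Kupffer cell markers summed to 527.2 and 751.9 CPM against 634.8, 741.8 and 200.7 CPM, with 0 of 14 below or above. Without replicate 3, 3 lay above, as did 15.6% of all genes. The macrophage and monocyte markers summed to 218.4 and 331.8 CPM against 239.9, 325.7 and 49.6 CPM, with 1 of 17 below. The sinusoidal endothelial markers summed to 529.0 and 446.6 CPM against 228.0, 594.8 and 267.4 CPM, with 0 of 14 below or above. Replicate 3 was lowest in 4 of these 5 sums. Of the neutrophil markers, Camp, Mpo and Ngp had no count in any of the 5 libraries. In bulk samples fewer cells of a type and less RNA per cell cannot be told apart, and the part of such cells in the lower Sox9, Spp1 and matrix values was not tested. Without replicate 3, Sox9 still lay below both controls by the values given above, and so did the summed cholangiocyte markers.

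**Figure D3:**
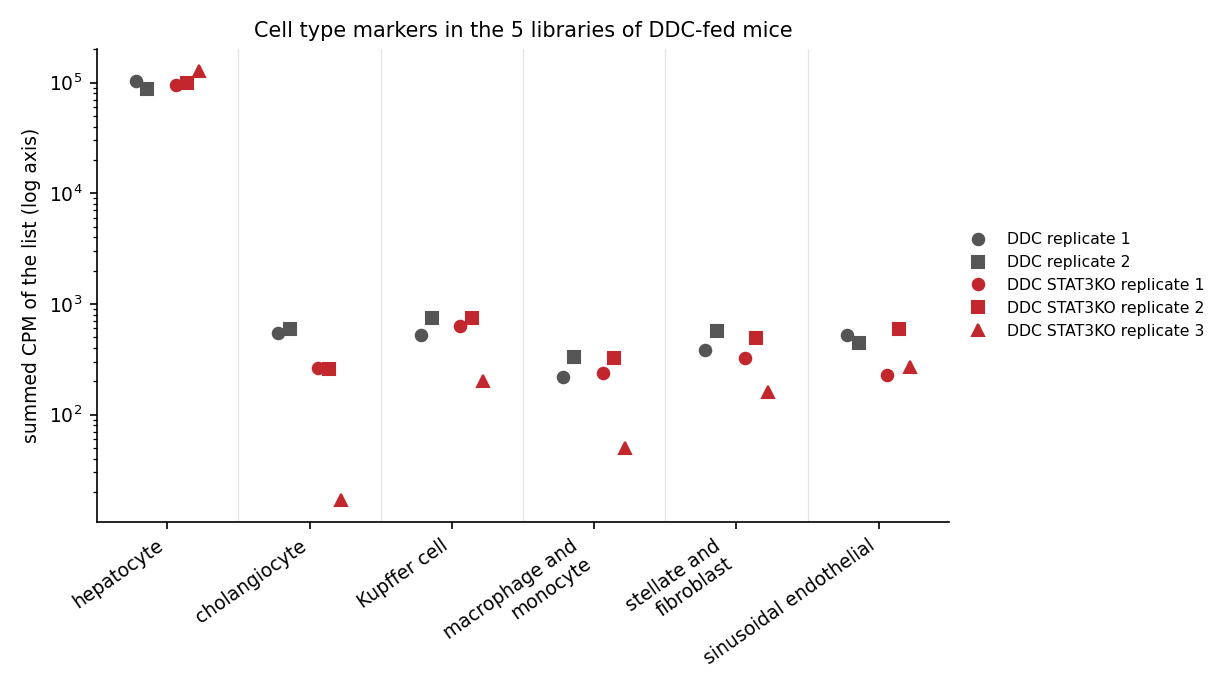
Summed level of each cell type's markers, tested or not, in CPM (log axis) in the 5 libraries of DDC-fed mice, with controls in grey, deleted libraries in red and replicate 3 as a triangle. Replicate 3 sits lowest for cholangiocyte (16.8 CPM), Kupffer cell, macrophage and stellate markers and highest for hepatocyte markers (128100 CPM).

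Of the 6 genes highest in replicate 3 relative to deleted replicates 1 and 2, 5 were enzymes of the cytochrome P450 families. Cyp2c39 held 797.4 CPM there against 3.34 and 4.32 CPM, Cyp4a10, a fatty acid hydroxylase, 1782 CPM against 58.2 and 40.5 CPM, and Cyp4a14 2528 CPM against 71.3 and 141.4 CPM. Cyp2b9 held 137.9 against 3.34 and 0.136 CPM, the Cyp1a1 values are given above, and Rgs16, a regulator of G-protein signalling, held 300.7 against 16.7 and 10.5 CPM. The controls were not uniform either: Cyp2c39 held 7.74 CPM in DDC replicate 1 and 214.4 CPM in replicate 2. The 6 lowest were Spp1, the pheromone carrier Mup20 (122.5 CPM against 7908 and 3162), Cyp21a1 (0.0748 against 43.4 and 13.1), Serpina1e (5.31 against 86.5 and 236.5), Cpe, a carboxypeptidase (0.374 against 58.5 and 10.9), and Mug2, a protease inhibitor (43.0 against 591.8 and 1009).

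With all 3 deleted libraries, other groups had few or no members apart. Of all genes, 9.0% lay below and 9.35% above, and 16.6% and 15.6% without replicate 3. Without that library, the shares of cell cycle and unfolded protein response genes above both controls exceeded that of all genes. Cell cycle genes had 0 of 35 below and 0 above, and 9 above without replicate 3. Interferon targets had 2 of 41 below and 2 above (4.88% each), and 3 and 7 without replicate 3, with a median of -0.02. Igtp, an interferon-induced GTPase, held 17.7 and 9.76 CPM against 21.3, 20.4 and 19.98 CPM. Unfolded protein response genes had 0 of 27 below and 1 above, and 4 and 7 without replicate 3. Chemokine and adhesion genes differed from these lists, with 4 of 21 below (19.0%, against 9.0% of all genes) and 0 above, and 6 and 2 without replicate 3. The 4 were Ccl2 and Ccl7, which attract monocytes, Cxcl5, and the adhesion molecule gene Vcam1. Ccl2 held 29.9 and 25.4 CPM against 16.3, 20.1 and 5.39 CPM. Cxcl5 had 12 and 6 counts against 0, 1 and 0.

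The same deletion under the IL-6 plasmid gave larger differences in the acute phase genes, with the limits that its controls had neither floxed alleles nor virus and that IL-6 replicate 3 held 7795 EGFP counts against 93 to 117 in its fellow replicates. In acute phase genes the median log2 fold change was -3.45 under IL-6, with 28 of 37 called lower by edgeR, against -0.70 under DDC. Many genes were called in that IL-6 comparison: of all 14339 genes, edgeR called 1866 higher and 1915 lower, against 0 and 0 under DDC. The test of the difference between the 2 differences, which share no library, called 585 genes higher under DDC (4.08%) and 602 lower (4.2%), 1187 in all (8.28%). Without 1 library these counts ranged from 155 to 753 and from 304 to 858, the lowest without DDC replicate 2. Of 37 acute phase genes 22 were among the 585 and 0 among the 602.

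With the IL-6 plasmid, Saa1 held 11910, 13910 and 16150 CPM without and 21.9, 37.9 and 17.4 CPM with the deletion, so that both the start and the drop exceeded those under DDC (difference 4.19 ± 0.94 on the log2 scale, edgeR adjusted p = 0.018). Socs3 went from 270.2, 292.1 and 215.8 CPM to 6.69, 4.54 and 3.97 CPM, and its difference was 4.26 ± 0.48 (edgeR adjusted p = 0.000342). Steap4 differed by 2.10 ± 0.43 (edgeR adjusted p = 0.011), Lcn2 by 4.55 ± 1.02 (0.0182) and Sox9 by 2.45 with the smaller fall under DDC. C4b was an exception in size: its log2 fold change was -1.10 under DDC and -0.55 under IL-6, a difference of -0.55 ± 0.31 that did not pass (edgeR adjusted p = 0.318). Stat3 differed by 0.83 ± 0.31 and did not pass either (edgeR adjusted p = 0.119). Interferon targets went the other way: 38 of 41 were called higher under IL-6, against 1866 of all 14339 genes. The median of these targets was 3.65, and 32 of 41 were among the 602. Gbp10, an interferon-induced guanylate-binding protein, held 0.0789, 0.0617 and 0.562 CPM with the IL-6 plasmid alone and 237.5, 203.6 and 438.1 CPM with the deletion added, but 4.19 and 1.20 CPM in the DDC and 3.87, 1.77 and 2.10 CPM in the DDC STAT3KO libraries.

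**Figure D4:**
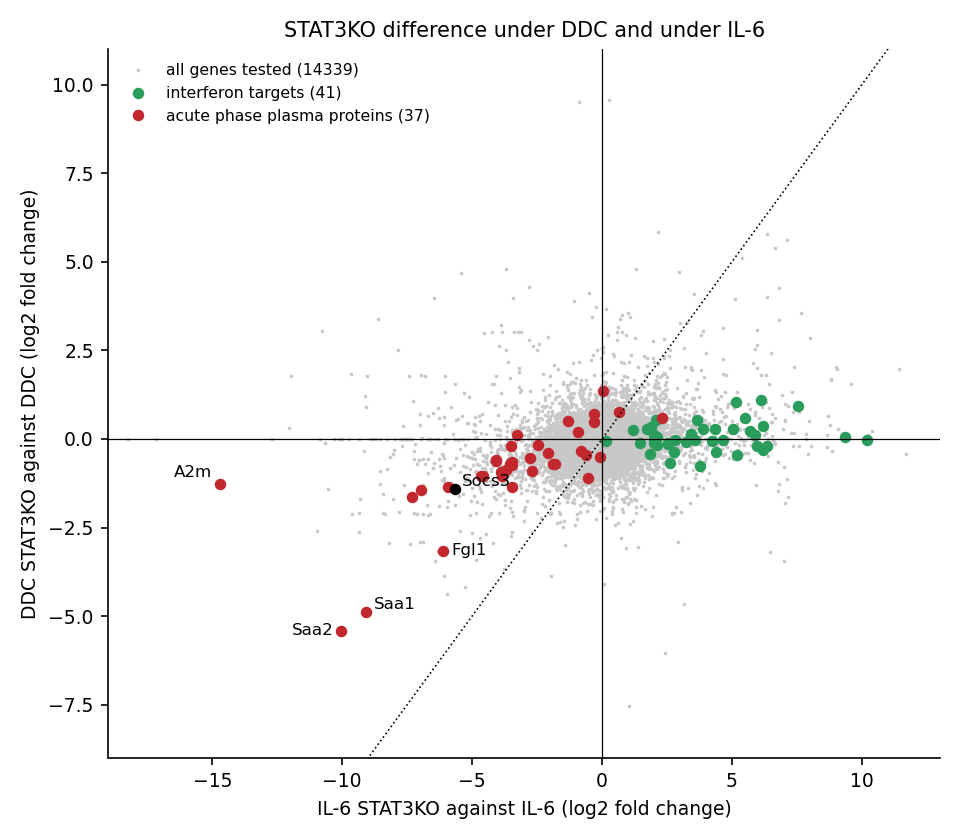
Log2 fold change of each gene with Stat3 deletion under DDC (vertical) and under the IL-6 plasmid (horizontal), with acute phase genes in red, interferon targets in green, Socs3 in black and a dotted line of equal change. The red points sit mostly left of zero with shallower vertical values, a median of -0.70 against -3.45, while the green points spread to the right along a vertical value near 0.

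Genes called lower in the IL-6 comparison were also followed in the DDC libraries, which were not part of that contrast but shared its filter, scaling and estimate of spread. Among 1296 genes lower there by a log2 fold change under -1, 66.4% were negative under DDC against 48.8% of all genes, with a median of -0.24. All deleted DDC libraries lay below both controls for 271 of them (20.9%, against 9.0% of all genes) and above for 52 (4.01%), and without replicate 3 for 348 (26.9%, against 16.6%) and 122 (9.41%). Among the 426 lower by under -3, 111 (26.1%) lay below and 4 above, and 131 and 25 without replicate 3. The 1183 genes higher there by over 1 had a median of 0.15 under DDC, and 37.1% were negative there. Of these, 129 (10.9%) lay above, near the 9.35% of all genes, and 63 (5.33%) below, and without replicate 3 213 (18.0%, against 15.6%) and 161 (13.6%). The 2 differences correlated at r = 0.202 across all genes and r = 0.72 across the 37 acute phase genes. Genes are not independent replicates and both differences come from 1 fit, so these values carry no p.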

How the data were processed

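Raw gene counts in the hepatocyte table were deposited by the authors. The submitters' processing notes name the build mm10 and the tools STAR, HTSeq and DESeq2, without versions. Per the labels' protocols, livers were perfused, cells sorted, and TruSeq libraries made. The lowest total of a gene in the table of 18668 genes was 10. Symbols came from GENCODE M21 (18626 genes matched) and all columns were matched to a sample.

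EGFP was kept out of library sizes. The 13 hepatocyte libraries were fitted together with edgeR 4.0.16 in R 4.3.3 (TMM, filterByExpr by group, quasi-likelihood F test, 1 term per group, 8 residual degrees of freedom), with Benjamini-Hochberg adjustment over 14339 genes and a threshold of 0.05. The SE of an edgeR log2 fold change is its size divided by the square root of F. DESeq2 1.42.0 and limma 3.58.1 were alternatives. The code was tested on simulated counts. Log2 levels for correlations and library gaps used CPM plus a pseudocount of 1.

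Members, gene lists and tests were chosen with earlier results of these data known. Genes were named by a rule: Stat3, Il6, Il6ra, Il6st, Socs3 and Sox9; called genes with the largest change and a mean of at least 20 CPM, which gave 0 genes by edgeR; the smallest p in each list; 5 genes each way for the difference from IL-6; and the 6 highest and 6 lowest genes of replicate 3. The genes called by DESeq2 and other members named for their groups not overlapping were chosen after their values were seen. Replicate numbers gave no pairing: same-numbered libraries of the DDC groups deviated together at r = -0.059 and -0.012.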

Additional observations from a re-analysis of the deposited data

Results flagged for a closer look

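The difference made by Stat3 deletion was not the same under DDC and under the IL-6 plasmid for several named genes, by the edgeR test of the difference itself. On the log2 scale, with positive values for a smaller fall or larger rise under DDC, it was 4.263 for Socs3, 2.446 for Sox9, 2.103 for Steap4 and 4.189 for Saa1. It was 13.446 for the protease inhibitor A2m, 9.979 for Rtn4rl2, 9.143 for Igdcc4, 7.228 for the odorant-binding protein gene Obp2a and 7.094 for the steroid hydroxylase Cyp17a1. It was -10.23 for Gbp10, -9.46 for the carbonic anhydrase Car3, -9.272 for the interferon-induced GTPase Tgtp2, and -8.791 and -8.541 for the glutathione transferases Gsta1 and Gsta2. Fitted sizes of genes near 0 counts depend on the prior count: Igdcc4 had 3 counts over the IL-6 STAT3KO libraries, Gsta1 3 over the IL-6 libraries, and Rtn4rl2 3 over the DDC libraries. A2m held 0 to 8 counts in each of the 5 DDC libraries and 6188 to 201885 in the IL-6 libraries; its edgeR adjusted p of 0.0493 rose to between 0.058 and 0.257 in 10 alternatives, among them each fit without a DDC, DDC STAT3KO or IL-6 STAT3KO library. Obp2a lost the call without DDC replicate 1 or 2 (adjusted p = 0.0742 and 0.0726), and Cyp17a1 without DDC replicate 2 (0.0561). Tgtp2, Gsta1 and Gsta2 have near copies, so single members are uncertain.

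EGFP, which no comparison uses, held 7795 counts in IL-6 replicate 3, against 117 and 93 in IL-6 replicates 1 and 2 and 34 and 35 in the GFP plasmid libraries, although its label names an IL-6 plasmid in a wild-type mouse. That library also held 5624 of the 5738 Il6 counts of its group.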

How the results depend on the processing

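The count of 0 genes in the DDC comparison was the same with median-of-ratios scaling, no filter on low counts, a mean of at least 1 CPM, only the compared groups, a log2 fold change over 1, limma-voom and a fit with the replicate number as a replicate block (0 and 0). DESeq2 gave 2 higher and 7 lower. Leaving out 1 library gave edgeR 0 to 1 higher and 0 to 1 lower: Igsf23 without DDC replicate 1 and Saa1 without DDC replicate 2. DESeq2 then gave 2 to 170 higher and 3 to 96 lower, and was tried this way after seeing the data, as were limma-voom and counts without deleted replicate 3. For the difference from IL-6, DESeq2 gave 998 higher and 876 lower, the replicate block 598 and 700, and leaving out 1 library 155 to 753 and 304 to 858. With 1 library left out, 7 named genes that no fit called took both signs of log2 fold change: Il6ra -0.099 to 1.203, Cd4 -1.951 to 2.101, Ighm -0.821 to 0.489, Klf1 -0.206 to 1.496, Pf4 -0.153 to 0.557, Nlrc5 -0.956 to 0.218 and Mup2 -0.151 to 3.004.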

Other observations

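Some genes divided the 5 libraries sharply but not by deletion. Among genes with at least 20 CPM in any of them, 10 had a gap over 3 on the log2 scale between libraries that cut across the groups. In 6 of these, DDC replicate 2 and deleted replicate 3 were low and the other 3 libraries high: Mug2, Nnmt, Mup7 and the predicted genes Gm8730, Gm4735 and Gm6969. Mug2 held 1302 and 42.8 CPM in DDC replicates 1 and 2 and 591.8, 1009 and 43.0 CPM in deleted replicates 1, 2 and 3. Nnmt, a nicotinamide methyltransferase, held 18.8 and 0.980 CPM against 17.2, 33.6 and 0.599 CPM. Cyp2c39 was high in exactly the pair of libraries that was low for those 6. C8a, a component of the complement membrane attack complex, was high in DDC replicate 1 (366.8 CPM) and deleted replicate 2 (226.4 CPM) and near 2 in DDC replicate 2, deleted replicate 1 and deleted replicate 3 (1.96, 1.65 and 2.17 CPM). In the other groups C8a also split, with 21.4, 915.3 and 641.7 CPM in the IL-6 and 302.2, 2.92 and 369.3 CPM with deletion under IL-6. Selenbp2 and Serpina1e made up the 10. These genes were chosen for their values, and no cause was tested.

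All 13 hepatocyte libraries had the same sex-linked pattern, with 0 to 9 counts of Xist and 1104 to 2246 counts of the Y-linked gene Ddx3y.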
